A study of Mus musculus with 37 samples.

Results

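Cep250, Cdk5r2, Grn and Slc45a4 are 4 mouse genes, of 55401 in the deposited expression table, whose RNA was higher in oocytes or zygotes that lacked BAP1 than in controls. They were picked by name from the largest rises of earlier results on these same libraries, Cep250 in fully grown oocytes (FGO), Cdk5r2 in ovulated eggs arrested in the second meiotic metaphase (MII), and Grn and Slc45a4 in late 1-cell embryos (L1C). In those contrasts the values are therefore given as a description without a test, and the tests below compare libraries of the other stages. In the early stages the variance behind those tests is still estimated with the libraries a gene was chosen from. RNA of 26 libraries was measured as fragments per kilobase of transcript, scaled to library size (FPKM) in FGO, MII, L1C, early 2-cell (E2C) and late 2-cell (L2C) samples, each with 2 control and 3 knockout libraries except E2C, which has 3 of each. A further 11 poly(A) libraries covered the epiblast (EPI), visceral endoderm (VE) and extraembryonic ectoderm (EXE) at embryonic day 6.5, with 2 libraries per group but a single EXE control.

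Control oocytes and eggs were Bap1 flox/flox, and knockout oocytes and eggs were Gdf9-iCre, Bap1 flox/flox, so that all females carried both floxed alleles. Embryos of either genotype were from those females crossed to B6, or to PWK for embryonic day 6.5. Knockout embryos thus also carried the father's intact Bap1 allele and are maternal knockouts only. The Gdf9 promoter acts in growing oocytes, so the deletion dates from oocyte growth and not from the stage sampled. Embryos were cultured in KSOM medium. Neither the number of oocytes or embryos in a library nor the animals behind it is given in the sources used here, so p-values measure the spread between libraries, which may be technical.

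BAP1 is the catalytic subunit of the Polycomb repressive deubiquitinase, which removes the ubiquitin that Polycomb repressive complex 1 places on histone H2A and so counteracts that complex. Fully grown oocytes transcribe little, and the egg and zygote live on RNA stored during growth, which is cleared in waves while the embryonic genome is switched on, with the major wave in the 2-cell mouse embryo. A transcript stored by the oocyte can therefore be followed from FGO to L2C as a stock that is used up, joined by new transcription once the embryonic genome is switched on. The 4 products have unrelated roles. Progranulin, made from Grn, is a secreted growth-factor-like glycoprotein that is taken to lysosomes and cut into granulins. SLC45A4 belongs to a family of proton-coupled sugar transporters and has also been described as a polyamine transporter. Cdk5r2 encodes p39, an activator of the kinase CDK5 known mainly from neurons. Cep250 encodes C-NAP1, which anchors the linker that ties a pair of centrioles together, although mouse oocytes have no centrioles and build spindles from acentriolar organizing centres.

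In the GENCODE M21 annotation of GRCm38, Cep250 (ENSMUSG00000038241.16) lies on chr2:155956458-155998900 on the + strand and Cdk5r2 (ENSMUSG00000090071.4) on chr1:74854934-74857732 on the + strand, where it has a single exon. Grn (ENSMUSG00000034708.12 in the deposited table and ENSMUSG00000034708.11 in the annotation) lies on chr11:102430315-102437048 on the + strand, and Slc45a4 (ENSMUSG00000079020.9) on chr15:73577424-73645762 on the - strand. The stretches just before the annotated start of the 3 genes with a RefSeq promoter window are shown because CpG-rich promoters are a usual setting of Polycomb. Each is written 5′ to 3′ from GRCm38.p6 with CG pairs in capitals.
Cep250 (chr2:155956308-155956457, + strand): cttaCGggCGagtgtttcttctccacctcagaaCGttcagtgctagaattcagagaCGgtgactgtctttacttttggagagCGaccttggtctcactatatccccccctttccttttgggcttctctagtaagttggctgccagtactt
Cdk5r2 (chr1:74854779-74854933, + strand): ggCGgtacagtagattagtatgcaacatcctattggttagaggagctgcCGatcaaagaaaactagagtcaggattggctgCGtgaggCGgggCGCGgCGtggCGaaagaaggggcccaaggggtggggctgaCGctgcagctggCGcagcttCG
Grn (chr11:102430257-102430314, + strand): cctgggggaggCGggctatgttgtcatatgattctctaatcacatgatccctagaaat

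In the full windows of 300 bases, from 250 before to 50 after the RefSeq start, the Cdk5r2 promoter held 33 CG pairs at 71.7% G or C, the Cep250 promoter 18 at 59.3%, and the Grn promoter 11 at 56.3%. The median over 32851 RefSeq windows was 7 CG pairs and 52.7% G or C. By the ratio of observed to expected CG pairs, 84.3% of all windows were below Cdk5r2, 69.8% below Cep250 and 56.4% below Grn, so CG pairs were denser than the median in all 3. The E-box CACGTG, searched on both strands, was in none of the 3 windows and in 7.15% of all windows. The 8-letter word TCACATGA, an M-box of the MITF and TFE family, was in the Grn window alone among the 3, as the letters tcacatga in the stretch shown, and in 0.986% of all windows, again on both strands. These matches are letters in a window and were not tested as binding sites.

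The genotype labels of the early libraries were checked with Bap1 itself. Bap1 was at 3.76 to 11.7 FPKM in the 15 early knockout libraries and at 16.3 to 29.9 FPKM in the 11 early controls, so the groups did not overlap at any stage. The ratio of knockout to control means was 0.194 in FGO, 0.162 in MII, 0.206 in L1C, 0.264 in E2C and 0.463 in L2C. At embryonic day 6.5 the Bap1 ratio was 1.51 in EPI, 1.27 in VE and 1.08 in EXE. Bap1 was thus not lower in those maternal knockouts and gave no check of their labels. Summed FPKM ran from 300668 to 430784 in the total RNA libraries, and 10353 to 11942 genes reached 1 FPKM. Fragment counts, and hence depth, are not known. All 12 oocyte markers reached 1 FPKM in every early group. Of 17 granulosa and cumulus markers, 1 to 3 reached that level, and their summed FPKM was 5.88 to 13.4 in controls and 2.31 to 5.08 in knockouts, lower in the knockouts at each stage. Cyp19a1 was at 3.46 to 6.72 FPKM in controls and 1.14 to 2.16 in knockouts from FGO to E2C, and Amhr2 at 8.59 to 9.60 and 1.44 to 2.34 in L2C. Lhcgr was listed at 0 in every early library, and Inha in every library from MII to L2C. In FGO Inha, Inhba, Fshr, Cyp11a1 and Nr5a1 overlapped between genotypes, and Amh, Foxl2 and Has2 were lower in knockouts. These genes all stayed under 1 FPKM there. In such bulk samples fewer cells of a type and less RNA per cell cannot be told apart.

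**Figure D1:**
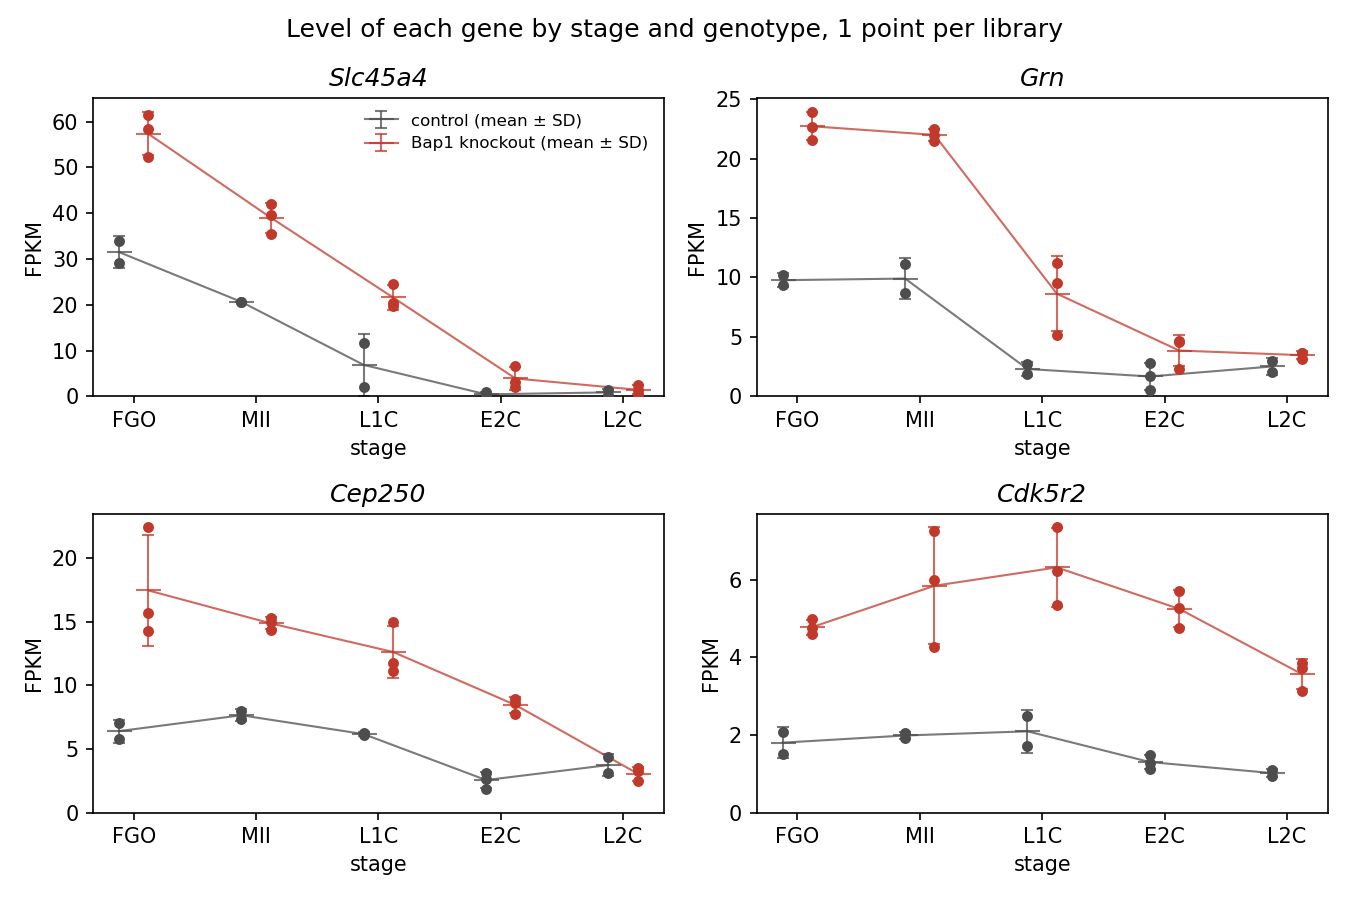
FPKM of Slc45a4, Grn, Cep250 and Cdk5r2 by stage, with 1 point per library and bars for mean ± SD of control (grey) and Bap1 knockout (red) libraries. The knockout points lie above every control point in 17 of the 20 pairs of gene and stage, and the exceptions are Grn in E2C and Cep250 and Slc45a4 in L2C. The pairs that the genes were chosen from are among the 17. Of all genes tested, 17.7% did so in FGO, 19.8% in MII, 22.0% in L1C, 14.6% in E2C and 29.1% in L2C.

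All 4 genes had more RNA in knockout oocytes and eggs, and they differed in how long this lasted. For Cep250 in FGO and Cdk5r2 in MII the rise follows from how they were chosen. Cdk5r2 stayed higher through L2C, Cep250 was higher up to E2C and not in L2C, and Grn passed the test in FGO and MII but in neither 2-cell stage. Slc45a4 was above every control library from FGO to E2C, yet its effect did not pass the test at any of the 4 stages where it was tested. Each effect below is the knockout minus the control mean of log2(FPKM + 1) from limma, ± its standard error, with p-values adjusted by Benjamini and Hochberg over 15184 genes and a threshold of 0.05. Of 16 tests, 9 gave a higher call in knockouts and 0 a lower one. In FGO 2 of 3 genes tested were called higher, Cdk5r2 and Grn, where 3.91% of all genes tested were called higher. In MII it was 2 of 3, Cep250 and Grn, against 6.57% of all genes. In L1C it was 2 of 2, Cdk5r2 and Cep250, against 7.60%, and in E2C 2 of 4, the same pair, against 6.20%. In L2C it was 1 of 4, Cdk5r2, against 17.0%, and a count of 1 in 4 is close to that background.

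**Figure D2:**
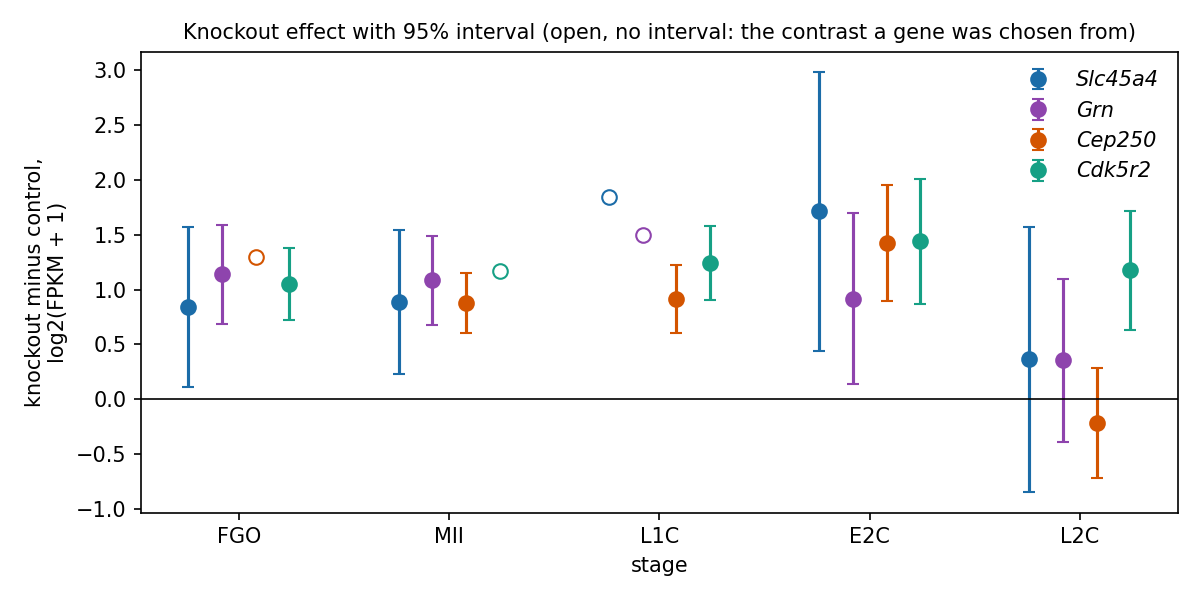
Knockout minus control difference in log2(FPKM + 1) for each gene at each stage, with its 95% confidence interval from limma, not adjusted for the number of genes. Open symbols without an interval mark the contrast a gene was chosen from. The intervals of Cdk5r2 stay above 0 at all 4 stages tested, and that of Cep250 crosses 0 in L2C.

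Grn RNA was high in oocytes and eggs and had mostly gone by the 2-cell stages in both genotypes. In FGO the controls were at 10.2 and 9.37 FPKM and the knockouts at 23.9, 21.5 and 22.7 FPKM. In MII the controls were at 11.1 and 8.70 FPKM and the knockouts at 21.5, 22.0 and 22.5 FPKM. Every knockout library of both stages stood well above every control, and the knockout libraries differed little among themselves. The effect was 1.14 ± 0.22 in FGO (limma adjusted p = 8.38e-04) and 1.08 ± 0.19 in MII (limma adjusted p = 3.51e-04), with mean FPKM ratios of 2.33 and 2.22. In L1C, where Grn was chosen, controls were at 1.86 and 2.74 FPKM and knockouts at 11.2, 9.55 and 5.15 FPKM, a ratio of means of 3.75.

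In E2C the Grn controls were at 0.528, 2.78 and 1.70 FPKM and the knockouts at 4.67, 4.55 and 2.34 FPKM, so that 1 knockout library lay below 1 control. The effect was 0.92 ± 0.38 (limma adjusted p = 0.118) and did not pass the threshold, though it did where libraries were not weighted by stage (adjusted p = 0.0134). In L2C the controls were at 2.02 and 3.01 FPKM and the knockouts at 3.67, 3.62 and 3.11 FPKM, all slightly higher, and the effect was 0.36 ± 0.36 (limma adjusted p = 0.489). Relative to the FGO mean of the same genotype, Grn was still at 101% in MII controls and 96.8% in MII knockouts. By L1C it was at 23.6% in controls and 38.0% in knockouts, and by E2C at 17.1% and 17.0%. The loss between egg and zygote was thus the largest step in both genotypes, and by E2C the remaining shares were nearly equal. These steps were not tested, since L1C was used to choose the gene.

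Macrophages express Grn strongly, so the markers of such cells stand beside these values. Of 12 macrophage and blood markers, 1 or 2 reached 1 FPKM in each early group. From FGO to L1C most of their sum was the complement gene C1qb. The sum was 5.04 to 8.04 FPKM in FGO controls and 5.26 to 6.71 in FGO knockouts. It was 3.69 to 4.58 and 5.74 to 7.06 in MII, and 3.79 to 4.43 and 4.64 to 7.61 in L1C. In E2C it was 1.91 to 3.63 and 2.69 to 4.75, and in L2C 1.56 to 2.43 and 1.99 to 3.41. The sum was thus higher in all knockout libraries of MII and L1C, and overlapped in FGO, E2C and L2C. C1qb alone was at 3.16 to 4.22 FPKM in MII controls and 5.51 to 6.56 in MII knockouts. Cd68 was lower in knockouts in FGO, at 0.525 to 0.535 FPKM in controls and 0.275 to 0.476 in knockouts. It overlapped between genotypes in MII, L1C and L2C. In E2C Cd68 was higher in knockouts, at 0 to 0.543 FPKM in controls and 0.699 to 0.884 in knockouts. C1qa and C1qc, on the same list, did not exceed 0.143 and 0.564 FPKM in any early library. Lyz2 reached 2.29 FPKM in 1 knockout library of L1C and was listed at 0 in both L1C controls. The part of these markers in the Grn values was not tested. The receptor genes Adgre1 and Csf1r did not exceed 0.140 and 0.0679 FPKM in any early library, and Aif1, Tyrobp and Hbb-bs were listed at 0 in all of them.

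Slc45a4 had the highest level of the 4 genes in oocytes and fell most steeply. In FGO its controls were at 29.1 and 33.9 FPKM and its knockouts at 52.2, 58.3 and 61.4 FPKM. In MII both controls were at 20.6 FPKM and the knockouts at 35.5, 39.7 and 41.9 FPKM. All knockout libraries of both stages were above both controls, by at least 1.54 times in FGO and 1.72 times in MII. The effects of 0.84 ± 0.35 in FGO (limma adjusted p = 0.122) and 0.88 ± 0.31 in MII (limma adjusted p = 0.0589) did not pass the threshold in the fit of all stages, which shares 1 variance per gene among them. Fitted within the stage alone, both passed, with adjusted p-values of 0.00743 and 0.00176 by limma.

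In L1C, where Slc45a4 was chosen, controls were at 11.6 and 2.09 FPKM and knockouts at 19.7, 24.6 and 20.4 FPKM. The controls were far apart while all knockouts lay above both. The effect there was 1.85, and it was 0.83 without the lower control and 2.86 without the higher one, so its size rests on those 2 libraries. In E2C the controls were at 0.0472, 0.243 and 1.02 FPKM and the knockouts at 3.09, 6.67 and 1.96 FPKM. All knockouts lay above the highest control, and the libraries within each group were far apart, with an effect of 1.71 ± 0.61 (limma adjusted p = 0.0683) that ranked 8th of 15184. It passed the threshold in the stage alone (adjusted p = 0.0294) and with a pseudocount of 0.1, where the effect was 3.21 (limma adjusted p = 0.0224). In L2C the controls were at 0.309 and 1.41 FPKM and the knockouts at 0.517, 2.42 and 1.30 FPKM. The groups overlapped, and the effect was 0.36 ± 0.58 (limma adjusted p = 0.686).

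Slc45a4 means fell from FGO to E2C in both genotypes. Of its FGO mean, controls had 65.5% in MII, 21.8% in L1C and 1.39% in E2C, and knockouts had 68.1%, 37.7% and 6.81%. In L2C 2.74% was left in controls and 2.47% in knockouts. The shares were close in MII and in L2C, and the knockout shares were larger in L1C and E2C. The L1C control share averages the libraries at 11.6 and 2.09 FPKM, which lie far apart. None of these steps that involve L1C was tested, since it was used to choose the gene. Within each genotype the library ranges of neighbouring stages did not overlap from FGO to L1C, nor between L1C and the 2-cell stages, but those of E2C and L2C did.

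**Figure D3:**
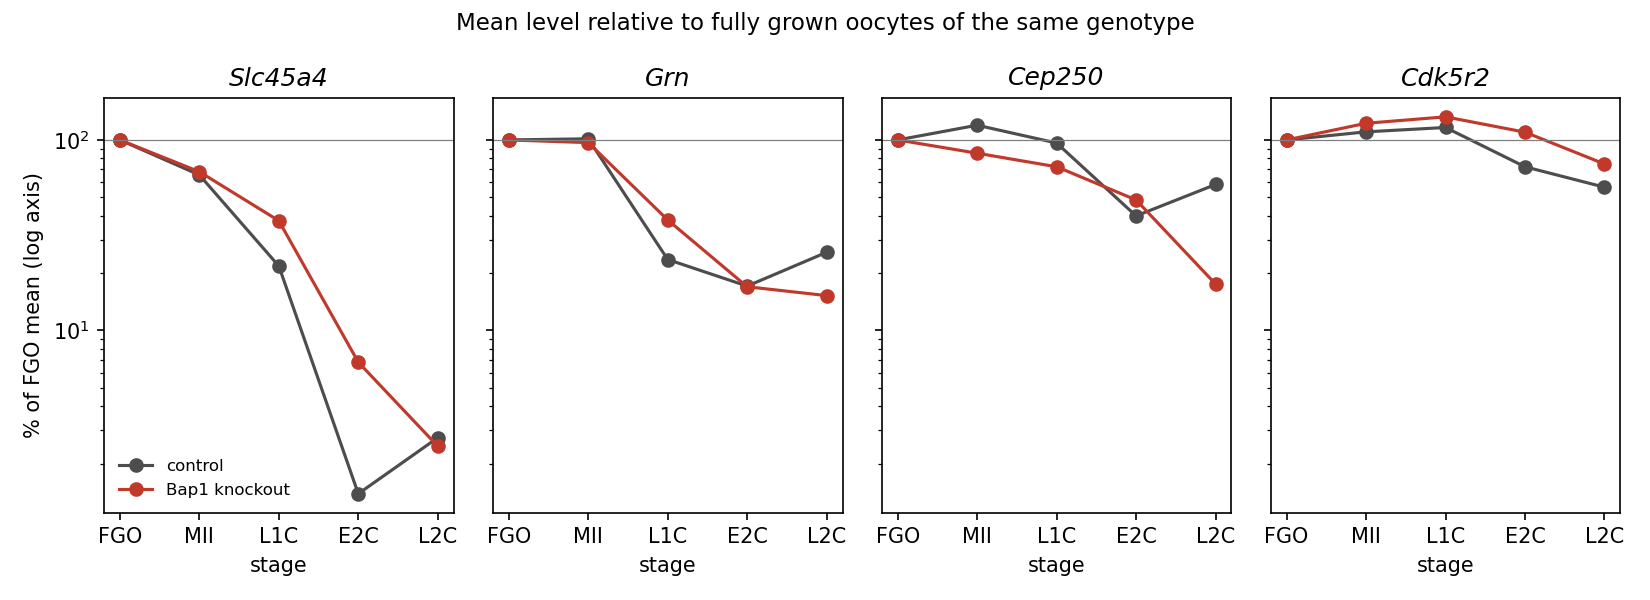
Mean FPKM at each stage as a percentage of the FGO mean of the same genotype, on a log axis, for control (grey) and knockout (red) libraries. Slc45a4 falls to 1.39% in control and 6.81% in knockout E2C embryos, whereas Cdk5r2 is at 72.3% and 110%.

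Cdk5r2 was the steadiest of the 4. Its FGO controls were at 2.08 and 1.52 FPKM and its FGO knockouts at 4.61, 4.75 and 4.99 FPKM. In MII, where it was chosen, controls were at 2.06 and 1.92 FPKM and knockouts at 7.27, 6.01 and 4.27 FPKM. In L1C controls were at 1.70 and 2.49 FPKM and knockouts at 7.37, 5.36 and 6.23 FPKM. At these stages every knockout library had more than 2 times the highest control. The effect was 1.05 ± 0.16 in FGO (limma adjusted p = 6.42e-05) and 1.24 ± 0.16 in L1C (limma adjusted p = 9.65e-06).

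In E2C the Cdk5r2 controls were at 1.29, 1.49 and 1.13 FPKM and the knockouts at 5.72, 4.77 and 5.27 FPKM, and in L2C the controls were at 0.942 and 1.09 FPKM and the knockouts at 3.86, 3.74 and 3.13 FPKM. The gap was as clear as in oocytes. The effect was 1.44 ± 0.27 in E2C (limma adjusted p = 0.00130) and 1.18 ± 0.26 in L2C (limma adjusted p = 0.00139), with ratios of means of 4.03 and 3.51. From E2C to L2C the change of the effect was -0.26, with a 95% interval of -1.05 to 0.53 (limma adjusted p = 0.717). The step itself was -0.19 in controls (limma adjusted p = 0.609) and -0.45 in knockouts (limma adjusted p = 0.162). The knockout step was called lower with median centring, without weights, and with E2C and L2C fitted alone. In control libraries the order of means was L1C, MII, FGO, E2C and L2C, and the first 3 overlapped. In knockouts L2C was the lowest and the other 4 stages overlapped with their neighbours in that order. Knockouts had 132% of their FGO mean in L1C and 74.8% in L2C, and controls had 116% and 56.5%.

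Cep250 changed its relation to the controls between the 2-cell stages. In FGO, where it was chosen, controls were at 7.05 and 5.75 FPKM and knockouts at 22.4, 14.3 and 15.7 FPKM. In MII controls were at 7.32 and 7.97 FPKM and knockouts at 15.3, 15.0 and 14.4 FPKM, and in L1C controls were at 6.07 and 6.26 FPKM and knockouts at 11.1, 15.0 and 11.8 FPKM. The lowest knockout was well clear of the highest control each time. The effect was 0.88 ± 0.13 in MII (limma adjusted p = 4.85e-05) and 0.92 ± 0.15 in L1C (limma adjusted p = 1.43e-04).

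In E2C the Cep250 controls were at 2.65, 3.14 and 1.87 FPKM and the knockouts at 8.96, 8.62 and 7.78 FPKM. Both genotypes were lower than in L1C and remained far apart, with an effect of 1.43 ± 0.25 (limma adjusted p = 7.45e-04). In L2C the controls were at 4.34 and 3.13 FPKM and the knockouts at 2.45, 3.25 and 3.48 FPKM, and the groups overlapped. The effect there was -0.22 ± 0.24 (limma adjusted p = 0.533), with a 95% interval of -0.72 to 0.28. Of its FGO mean, Cep250 had 39.9% in E2C and 58.4% in L2C in controls, and 48.4% and 17.5% in knockouts. From E2C to L2C Cep250 fell by 1.23 ± 0.23 in knockouts (limma adjusted p = 1.92e-04), a step at which 18.1% of all genes were called lower. In controls the same step was 0.42 ± 0.26 (limma adjusted p = 0.188). The L2C effect minus the E2C effect was -1.65 ± 0.35 (limma adjusted p = 0.00200), and 9.37% of all genes were called lower in that difference. Of the 4 genes, Cep250 was the only one called in that difference, and it kept the call in every fit that left out 1 library, with values of -1.83 to -1.46. The other differences were -0.56 for Grn (limma adjusted p = 0.529) and -1.35 for Slc45a4 (limma adjusted p = 0.307), with wide intervals of -1.64 to 0.52 and -3.10 to 0.40.

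Markers of genome activation differed between genotypes at these 2 stages. The FPKM of 7 listed markers of 2-cell activation, Zscan4c among them, was summed. The sum was 249 to 371 in E2C controls and 84.5 to 230 in E2C knockouts. In L2C it was 122 to 132 in controls and 372 to 485 in knockouts. From E2C to L2C it fell in controls and rose in knockouts. The sum was thus lower in knockouts in E2C and higher in L2C. Tdpoz4 differed from the sum in L2C, at 21.0 to 29.1 FPKM in controls and 3.78 to 12.1 in knockouts. Usp17lc, Zscan4d and Zscan4f each overlapped between genotypes in E2C. The part of this difference in the 2-cell values of Cep250, Slc45a4 and Grn was not tested.

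Set beside all genes, the effects of the 4 ranked high up to E2C, and only that of Cdk5r2 did so in L2C. Of 15184 genes tested, ordered from the largest rise, Cdk5r2 was 56th in FGO, 20th in L1C, 16th in E2C and 540th in L2C. Cep250 was 54th in MII, 80th in L1C and 19th in E2C, and Grn 39th in FGO, 19th in MII and 222nd in E2C. In L2C Cep250 was 10083rd, Grn 4242nd and Slc45a4 4180th. The median effect over all genes was 0 in FGO and E2C, 0.01 in L1C and 0.03 in L2C. The groups did not overlap, with knockouts higher, in all 4 genes in FGO, MII and L1C, where 17.7%, 19.8% and 22.0% of all genes did so. They did not overlap in 3 of the 4 in E2C, against 14.6%, and in 2 of the 4 in L2C, against 29.1%. A total of 4 of these pairs of gene and stage are those the genes were chosen from.

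Across the 26 early libraries the log2(FPKM + 1) of Grn and Slc45a4 ran most alike of the 6 pairs, with Pearson's r = 0.90, and that of Cdk5r2 and Slc45a4 least, with r = 0.50. These points share genotype and stage groups, and the values are descriptions. The search covered 9638 genes whose mean over these libraries reached 1 FPKM, and it left out predicted and clone-named gene models. The pattern most like that of Grn was in Susd3 (r = 0.94), Plxna1 (r = 0.93) and Syvn1 (r = 0.93), and most like that of Slc45a4 in Enkd1, Acacb and Fbxo21 (each r = 0.97). The nearest to Cdk5r2 were Mfhas1 (r = 0.93), Kcnab2 (r = 0.89) and Hip1 (r = 0.88). Mfhas1 had means of 0.456 FPKM in control and 2.96 FPKM in knockout FGO, and 0.828 and 4.38 FPKM in L1C. The nearest to Cep250 were Dcaf5 (r = 0.93), Ttll13 (r = 0.92) and Sympk (r = 0.92). Dcaf5 was at 8.11 FPKM in control and 18.9 FPKM in knockout E2C and at 11.3 and 11.1 FPKM in L2C. Its likeness to Cep250 there follows in part from the search, which used these libraries.

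The neighbouring genes were examined for each locus. Of 11 neighbours, the nearest protein-coding gene on each side and any overlapping gene, 3 passed the filter on low values, namely Ergic3 beside Cep250, Slc25a39 beside Grn and Dennd3 beside Slc45a4. Ergic3, a cargo receptor between endoplasmic reticulum and Golgi, starts 9144 bases past the end of Cep250 on the same strand. Its effect was 0.06 in FGO (limma adjusted p = 0.771) and 0.12 in MII (limma adjusted p = 0.380), so that it did not pass the test in oocytes and eggs, where Cep250 was high. It was called higher in L1C at 0.33 (limma adjusted p = 0.0122) and in E2C at 0.94 (limma adjusted p = 3.11e-04), and lower in L2C at -0.49 (limma adjusted p = 0.0112). The L1C call was lost without weights (0.147), within the stage alone (0.0812) and without the first control (0.206), and the L2C call without filter (0.0896), in TPM (0.0743), and without the second control (0.0939) or the third knockout (0.0613). Slc25a39 and Dennd3 were called at no stage, with limma adjusted p-values from 0.0780 upward. The antisense gene 6430550D23Rik overlaps Cep250 by 25622 bases, and of 10720 words of 50 bases in Cep250 exons, 900 are shared with it. It did not exceed 0.461 FPKM in any early library. Whether strand was used in the authors' counting is not given in the sources used here.

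Genes that work with the 4 were followed in lists. These lists were drawn up with earlier results of these libraries known, and they are given as counts and medians, to be read against the shares of all genes called higher, 3.91% in FGO, 6.57% in MII, 7.60% in L1C, 6.20% in E2C and 17.0% in L2C. Of 11 genes of the centrosome linker and its regulators that are listed with Cep250, at most 1 was called higher at any stage, and 0 in FGO. The calls lower were 1 in FGO, 2 in L1C and 1 in L2C. Over all genes tested, 9.97% were called lower in FGO, 10.2% in MII, 10.0% in L1C, 7.28% in E2C and 17.2% in L2C. The medians of their effects were 0.06 in FGO, 0.02 in MII, 0.03 in L1C, 0.12 in E2C and 0.13 in L2C. The largest fall was in Cntln, the centlein gene, in L1C, where it was at 13.1 to 13.4 FPKM in controls and 8.39 to 9.94 in knockouts, an effect of -0.48 ± 0.10 (limma adjusted p = 0.00136). The largest rise was in the Hippo kinase gene Stk3 in L2C, from 22.7 to 26.1 FPKM in controls to 51.5 to 52.1 in knockouts, an effect of 1.06 ± 0.14 (limma adjusted p = 5.09e-06). Of 17 genes of the pericentriolar material and acentriolar spindle poles, 1 was called higher in FGO, MII and E2C each, 0 in L1C and 4 in L2C, and 2 were called lower in FGO, 1 in L1C and 3 in L2C. Median centring turned the FGO counts to 3 higher and 0 lower in this list, and to 1 higher and 0 lower in the linker list. Akap9, a scaffold of the Golgi and centrosome, had the largest rise, 0.86 ± 0.12 in L2C (limma adjusted p = 8.79e-06). Cep63, which helps recruit the centriole duplication machinery, had the largest fall, -0.90 ± 0.24 in L2C (limma adjusted p = 0.00554).

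Of 11 genes listed for CDK5, its activators and its binding proteins, 10 were tested. The calls were 1 higher in MII, 2 in L1C and 1 in L2C, with 0 in FGO and E2C, and none of those tested was called lower at any stage as deposited, in TPM or with median centring. Their median effect was 0.06 in FGO and 0.21 in L2C. The largest rise was in Cdk5 itself in L2C, from 0.166 and 0.630 FPKM in controls to 1.37 to 1.83 in knockouts, an effect of 0.90 ± 0.23 (limma adjusted p = 0.00436), which did not pass without the filter on low values (0.0607) or without the first L2C control (0.103).

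Of 39 genes listed for progranulin partners and the lysosome, 32 were tested. In FGO 2 were called higher and 4 lower, in MII 2 and 5, in L1C 4 and 3, in E2C 4 and 3, and in L2C 7 and 9. Rises and falls were thus mixed at every stage, as they were in TPM and with median centring. The medians lay between -0.12 and 0.07 on the deposited scale and between -0.18 and 0.14 in TPM. The protease gene Ctsb had the largest fall, from 24.4 ± 2.89 FPKM (SD, n = 2) in L2C controls to 8.91 ± 0.0875 (SD, n = 3) in knockouts, an effect of -1.36 ± 0.24 (limma adjusted p = 1.47e-04). The lysosomal channel gene Mcoln1 had the largest rise, from 1.88 to 2.46 FPKM in L2C controls to 4.99 to 5.93 in knockouts, an effect of 1.02 ± 0.20 (limma adjusted p = 5.14e-04). Mitf, a transcription factor of lysosomal and pigment cell genes, was singled out after its values were seen. Its mean was 4.59 FPKM in control and 7.86 FPKM in knockout FGO, an effect of 0.66 ± 0.14 (limma adjusted p = 0.00270), and 4.76 and 8.41 FPKM in MII, an effect of 0.73 ± 0.13 (limma adjusted p = 2.73e-04). The FGO call was lost without the second control (0.0659).

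Of 16 genes of the SLC45 family and polyamine metabolism, 13 were tested. In FGO 0 were called higher and 2 lower, in MII 1 and 3, in L1C 3 and 2, in E2C 2 and 2, and in L2C 2 and 5. Median centring turned the MII counts to 4 higher and 2 lower, and TPM the L2C counts to 2 and 2. The family member Slc45a3, a sugar transporter that was far more abundant than Slc45a4, had the largest rise. It was at 76.9 to 82.7 FPKM in L2C controls and at 150 to 174 in knockouts, an effect of 1.01 ± 0.16 (limma adjusted p = 5.11e-05). In FGO its means of 245 FPKM in controls and 241 in knockouts hardly differed, with an effect of -0.02 (limma adjusted p = 0.957), whereas it was called higher in L1C at 0.58 (limma adjusted p = 2.05e-04) and in E2C at 0.99 (limma adjusted p = 4.74e-04). Sat1, which acetylates spermidine and spermine for export, had the largest fall, from 5.76 ± 0.0378 FPKM (SD, n = 2) in FGO controls to 2.12 ± 0.584 (SD, n = 3) in knockouts, an effect of -1.13 ± 0.18 (limma adjusted p = 1.22e-04). The spermine synthase gene Sms, like Slc45a3 in L1C and E2C named after its values were seen, was lower in FGO by -0.55 (limma adjusted p = 1.56e-05) and in MII by -0.65 (limma adjusted p = 2.84e-07).

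**Figure D4:**
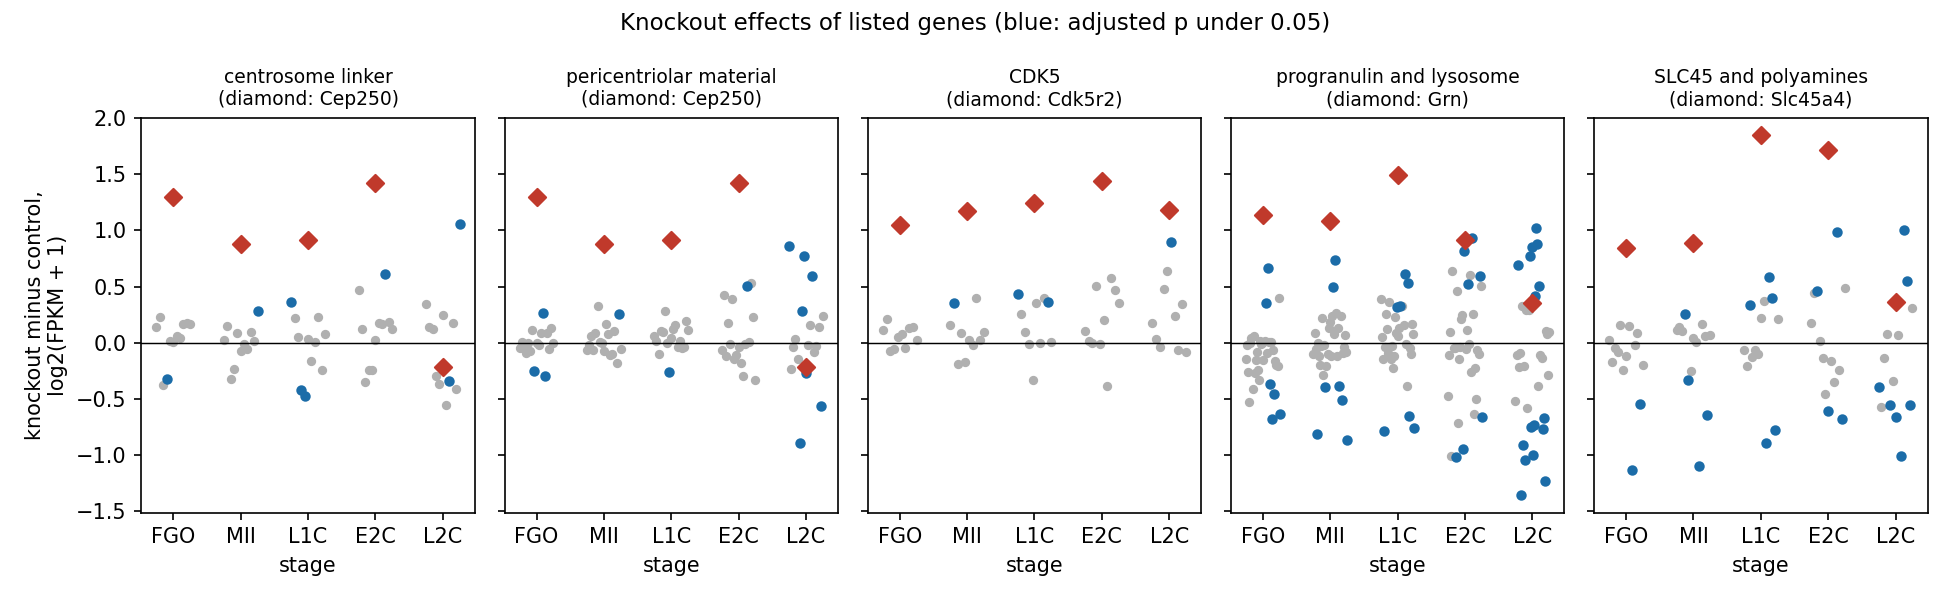
Knockout minus control difference in log2(FPKM + 1) of the listed genes at each stage (points, blue where the adjusted p is under 0.05), with the gene each list goes with as a red diamond. From FGO to L1C the diamonds lie above every point of their list, which for Cep250 in FGO, Cdk5r2 in MII, and Grn and Slc45a4 in L1C follows from how the genes were chosen. In L2C the diamonds of Cep250, Grn and Slc45a4 lie within theirs.

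At embryonic day 6.5 Cdk5r2 did not exceed 0.145 FPKM and Slc45a4 did not exceed 1.23 FPKM in any of the 11 libraries, and neither passed the filter on low values. Grn was clearly measured in all of them. It was at 27.1 and 23.2 FPKM in EPI controls and 41.2 and 30.5 in EPI knockouts, an effect of 0.48 ± 0.34. In VE it was at 34.6 and 36.0 FPKM in controls and 44.8 and 31.7 in knockouts, an effect of 0.09 ± 0.34. Cep250 was at 1.76 and 0.617 FPKM in EPI controls and 3.36 and 2.20 in EPI knockouts, an effect of 0.82 ± 0.39, and in VE at 1.65 and 1.97 FPKM in controls and 2.26 and 1.47 in knockouts, an effect of 0.01 ± 0.39. The knockout libraries were above the controls for both genes in EPI, as for 14.6% of 13376 genes, and overlapped them in VE. All 4 effects had a limma adjusted p = 1. Of 13376 genes, 0% were called higher by limma in either lineage, where 306 genes in EPI and 170 in VE had an unadjusted p under 0.05.

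In EXE, with a single control, there was no test. Grn was at 24.5 FPKM in the control and 15.2 and 18.7 in the knockouts, and Cep250 at 2.08 and at 1.28 and 0.903 FPKM. Both genes were lower in both knockout libraries, as were 35.7% of the 13376 genes. The epiblast marker Pou5f1 was at 20.5 FPKM in the EXE control and 0.127 and 13.8 in the EXE knockouts, against 274 to 694 in EPI libraries, and the EXE marker Elf5 at 135 and 151 to 184 FPKM. Fgf5 and Utf1, listed with Pou5f1 as lineage markers, did not share its difference. Fgf5 was at 1.31 FPKM in the EXE control and 0 and 1.88 in the EXE knockouts. Utf1 was at 457 FPKM in that control and 394 and 482 in those knockouts. The part of epiblast transcripts in the EXE values was not tested. These poly(A) libraries were made with another kit than the early ones, and no comparison of level between both kinds was tested.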

How the data were processed

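RNA of 37 libraries was sequenced, 26 of total RNA (SMART-Seq Stranded) and 11 of poly(A) RNA (SMART-Seq mRNA with Nextera XT), per the labels' protocols. The authors deposited FPKM per gene in 1 table for each kind of library. In 1 deposited EPI control column 1 gene is slightly negative, which FPKM cannot be. It was raised to the lower bound of the FPKM scale before use. The submitters' processing notes name Trim Galore 0.6.6, STAR 2.7.9, StringTie 2.1.7 and the build mm10. The other settings are not given in the sources used here. Low values did not come out as whole multiples of a unit (18.6% to 51.8% within 0.05), so depth is unknown and no interval for counting error was given.

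Values were log2(FPKM + 1), for genes at 1 FPKM or more in at least 2 libraries. A fold change on this scale understates that of low genes. limma 3.58.1 in R 4.3.3 fitted 1 mean per stage and genotype over the 26 early libraries, with a weight per stage (0.422 in E2C to 1.98 in MII) since spread differed, and separately over the 8 EPI and VE libraries without weights. The 4 genes, the gene lists and the rules were chosen with earlier results of these data known. Named from each list were the largest rise and fall among calls at any early stage. Also named were marker genes, the annotated neighbours, and the 3 genes with the highest Pearson's r with each of the 4. Predicted and clone-named gene models were left out of that search. Replicate numbers were not used to pair libraries. Between libraries with the same number, the residuals around group means correlated at -0.08 to 0.14 in the early stages, and at 0.59 in EPI and 0.43 in VE, where there are 2 pairs each and the labels do not say what a number marks. Of 55401 gene identifiers, 55141 were in GENCODE M21, 54349 of them with the same version. Promoter sequence is from RefSeq on GRCm38.p6. Python 3.11.15 with pandas 2.3.3 and matplotlib 3.10.9 was used.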

Additional observations from a re-analysis of the deposited data

Results flagged for a closer look

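The knockout effect on Cep250 differed between the 2-cell stages, with a difference of -1.65 (L2C minus E2C, on the log2(FPKM + 1) scale) that was tested as an interaction. At embryonic day 6.5 Cep250 had a knockout to control ratio of means of 2.34 in EPI, where both knockout libraries were above both controls, and 0.527 in EXE, where both were below the only control. The ratios of Grn were 1.43 in EPI and 0.693 in EXE, with the libraries placed likewise. Neither gene passed the test in EPI (limma adjusted p = 1), and EXE had no test. The differences between EPI and EXE were not tested.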

How the results depend on the processing

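Each of the 9 calls of Cep250, Cdk5r2 and Grn kept its direction and its side of the threshold in every alternative that gave a value, each left-out library included. A mean of at least 5 FPKM left out Cdk5r2, which then had no value. Slc45a4 gained calls only, at 3.21 in E2C with a pseudocount of 0.1, 2.55 in E2C in TPM, 0.99 in MII and 1.80 in E2C with median centring, 1.71 in E2C without weights, and 0.84 in FGO, 0.88 in MII and 1.71 in E2C with the stage alone. Grn gained a call of 0.92 in E2C without weights. For the E2C to L2C step in knockouts, Cdk5r2 gained a call of -0.76 with median centring. It also gained that call at -0.45 without weights and with E2C and L2C alone. Slc45a4 gained a call of -0.99 at that step without weights. Values near 0 changed sign: in VE with median centring Cep250 was -0.084 and Grn -0.0054, and with libraries left out they ran from -0.19 to 0.21 and from -0.15 to 0.34. Left-out libraries gave -0.078 to 0.80 for Slc45a4 in L2C, -0.077 to 0.81 for its E2C to L2C step in controls, and -0.33 to 0.050 for that step of Grn in knockouts. With the replicate block, where early numbers are shared without a sign of pairing, the last was 0.0662. The block gave 2 EPI genes higher and 2 lower, and changed no call of the 4 genes. In EPI the adjusted p was then 0.498 for Cep250 and 0.565 for Grn.

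Counts over all genes depended more on the settings. With a mean of at least 5 FPKM, which tests fewer genes, 311 genes were called higher in FGO, and 492 lower in FGO, 520 in MII, 641 in L1C, 460 in E2C and 1366 in L2C. From E2C to L2C 1999 then rose in controls and 1724 in knockouts, and 917 were lower in the difference. Without weights the higher and lower calls were 126 and 777 in FGO, 194 and 701 in MII, 339 and 837 in L1C, 2146 and 2261 in E2C, and 2361 and 2261 in the difference. With the stage alone they were 155 and 809 in FGO, 474 and 890 in MII, 690 and 967 in L1C, and 501 and 692 in E2C. Median centring gave 1153 higher in FGO, 2187 in MII, and 4812 lower from E2C to L2C in knockouts. It raised the median effect of all genes by 0.11 in MII, and moved it from 0.02 to -0.23 in controls and from 0.06 to -0.24 in knockouts at the E2C to L2C step. The share of calls that were higher was 28.1%, 39.2%, 43.1%, 46.0% and 49.8% from FGO to L2C, and 52.8%, 66.3%, 53.3%, 60.7% and 52.8% with median centring, and in TPM 60.2% in E2C and 64.0% in L2C. It was 56.5% for the E2C to L2C step in controls and 60.2% in knockouts, and 42.2% and 37.9% with median centring.

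With libraries left out, higher calls ran from 225 to 634 in FGO, 476 to 1061 in MII, 473 to 1191 in L1C and 567 to 846 in E2C. Lower calls ran from 939 to 1610 in FGO, 948 to 1525 in L1C, 707 to 969 in E2C and 933 to 1339 in the difference. The lowest counts came without a control library each time. In EPI a pseudocount of 0.1 or the lineage alone gave 2 higher and 1 lower. In VE there was 1 higher with the lineage alone and 0 lower without filter, and with libraries left out 0 to 1 higher and 0 to 2 lower. The causes were not tested. Controls of 2 libraries and unknown depth limit what these data can show, most of all for Slc45a4 and Grn at 2-cell levels.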
